A study of Mus musculus with 24 samples.

Results

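The expression of 44 genes that mark neurons, hypothalamic feeding circuits, glia, progenitors, mesenchymal cells and blood vessels was followed in a mouse hypothalamic cell line. The cells were kept in a medium of normal or of high glucose, and some received mogroside V, a sweet glycoside of monk fruit. The genes were taken from a list of names that, like the wider lists below, was chosen with earlier results of these data known. Shares of these lists that passed a test are therefore set beside those of all genes as description only. All 44 genes were found among the 56941 gene IDs of the count tables. They fall into 12 groups by role. Polyadenylated RNA was sequenced in 24 libraries, 3 for each of 8 groups named in the sample titles. NGC and HGC were read as the controls in normal and high glucose, and NG1, NG2, NG3, HG1, HG2 and HG3 as the same media with mogroside V at dose labels 1 to 3. The design text gives doses of 15, 60 and 160 µM, but the labels do not say which label is which dose. All groups come from cells labelled only as hypothalamic, which the design text calls adult neuronal cells. The labels name no glucose concentration, exposure time, line name or separate cultures, so the spread behind each p-value is that between libraries and may be technical.

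The files of HG2 replicate 3 and HG3 replicate 2 were identical, and both were left out, which leaves 22 libraries with n = 2 in HG2 and HG3 and n = 3 elsewhere. Counts assigned to genes were 3396249 to 7773074 per library. Levels are CPM, the counts of a gene scaled to a common library total of gene counts. The markers are ranked against each other in CPM per kilobase of exon. Classes of level, and the choice of genes named from a wider set, go by CPM, which is not scaled by gene length. NG3 replicate 3 stood apart, with the fewest genes with a count (16535, against up to 18935) and the lowest share of mitochondrial counts (5.43%, against up to 8.10%).

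Neurons are recognised by microtubule and neurofilament proteins, by the machinery of synaptic vesicle release and, in the hypothalamus, by peptides that raise (Npy, Agrp) or lower (Pomc, Cartpt) food intake and by receptors for leptin, melanocortins, ghrelin and GLP-1. REST is a repressor that holds neuronal genes off in cells that are not neurons and in neural progenitors. Vim and Nes are intermediate filaments of progenitors and tanycytes, the glia that line the hypothalamic ventricle, and Vim is also made by mesenchymal cells. Nes, Thy1 and S100a4, like Vim, are not specific to a single cell type. Pericytes, smooth muscle cells and fibroblasts carry the PDGF receptors and contractile or matrix proteins, and the sweet taste receptor is a dimer of Tas1r2 and Tas1r3.

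Promoter sequences are shown for an abundant contractile gene, a pair of neuronal cytoskeleton genes that were expressed and a pair of feeding peptides that were not, since these are the contrasts described below. Each is the run of 250 bases before the gene's start from RefSeq (GRCm38.p6), 5′ to 3′ on the gene's strand, in lower case with searched motifs in capitals. The motifs were CTATATGG and TTGTTTGG, the cores of the CArG elements through which serum response factor drives Acta2, and the parts TCAGCACC and GGACAGC of RE1, the element that REST binds. Both strands were searched, so that GGTGCTGA and GCTGTCC are these parts on the other strand.
Acta2 (chr19:34255374-34255623, minus strand): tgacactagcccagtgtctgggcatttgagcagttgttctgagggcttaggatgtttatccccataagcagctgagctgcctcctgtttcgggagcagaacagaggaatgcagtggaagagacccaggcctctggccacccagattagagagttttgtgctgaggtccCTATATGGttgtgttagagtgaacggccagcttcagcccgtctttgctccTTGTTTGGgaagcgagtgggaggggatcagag
Tubb3 (chr8:123411303-123411552, plus strand): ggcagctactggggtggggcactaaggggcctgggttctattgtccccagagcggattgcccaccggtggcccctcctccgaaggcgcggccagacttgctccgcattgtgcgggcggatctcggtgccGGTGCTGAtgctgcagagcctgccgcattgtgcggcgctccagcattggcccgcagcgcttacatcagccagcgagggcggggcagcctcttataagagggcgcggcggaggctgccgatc
Map2 (chr1:66175079-66175328, plus strand): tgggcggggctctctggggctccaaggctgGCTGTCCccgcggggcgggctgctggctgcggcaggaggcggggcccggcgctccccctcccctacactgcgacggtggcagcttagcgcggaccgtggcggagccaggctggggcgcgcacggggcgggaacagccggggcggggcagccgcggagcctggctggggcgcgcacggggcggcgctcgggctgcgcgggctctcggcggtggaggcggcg
Cartpt (chr13:99900684-99900933, minus strand): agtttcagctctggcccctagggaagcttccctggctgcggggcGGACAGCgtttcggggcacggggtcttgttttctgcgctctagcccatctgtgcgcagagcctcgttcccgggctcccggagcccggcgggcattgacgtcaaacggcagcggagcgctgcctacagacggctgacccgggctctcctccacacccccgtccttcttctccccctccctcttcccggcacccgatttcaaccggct
Npy (chr6:49822460-49822709, plus strand): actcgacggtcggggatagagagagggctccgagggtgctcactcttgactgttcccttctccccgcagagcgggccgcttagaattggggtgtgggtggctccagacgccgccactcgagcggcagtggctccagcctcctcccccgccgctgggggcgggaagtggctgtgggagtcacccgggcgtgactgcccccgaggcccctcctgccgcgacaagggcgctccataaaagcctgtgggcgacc

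RefSeq windows of 300 bases (250 before and 50 after the start) were matched for 27 of the 44 genes. Both CArG cores stood in the Acta2 promoter, 82 to 75 and 32 to 25 bases before the start. They were searched for as known elements of this gene, so finding them there was fixed in advance. At least 1 of the pair occurred in 1.63% of all 32851 windows, and among the markers in those of Acta2 and the silent peptide gene Sst. GGACAGC occurred in 6.56% of windows and in those of 4 markers: Map2 and Tubb3, which were expressed, and Cartpt and Aif1, which were not. In Tubb3 this match lay after the start and is not printed. TCAGCACC occurred in 1.65% of windows and in the Tubb3 window 121 to 114 bases before the start. The RE1 parts in Tubb3 thus lay on either side of the start, and joined RE1 elements were not searched for. A match is a description of letters and was not tested for binding.

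The windows of silent markers held no fewer CpG pairs, at the median, than those of the other markers. Taking the higher count where a gene has 2 windows, the 17 silent markers with a window had a median of 15 CpG (range 1 to 29), the 10 others had 10.5 (2 to 37), and all windows had 7 (0 to 67). Cartpt, with no count in any library, had 26 CpG, the same number as Tubb3, and Acta2 had 6.

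The normal-glucose control libraries (NGC, n = 3) answer which lineages the untreated cells express. A gene was called silent when it stayed under 1 CPM in each of the 3 libraries. Of the 44 markers, 25 were silent, 16 of them with no count among 13638204 gene counts, which allows up to 0.220 CPM over the 3 libraries. The other 19 comprised 8 with a mean under 10 CPM, 6 between 10 and 100 CPM and 5 over 100 CPM. For scale, 74.0% of all gene IDs were silent by the same rule, and 47.7% of the 28284 IDs with a count in any of the 22 libraries. Counting error only is covered by these limits. In bulk RNA, fewer cells that express a gene and less RNA per cell cannot be told apart.

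**Figure D1:**
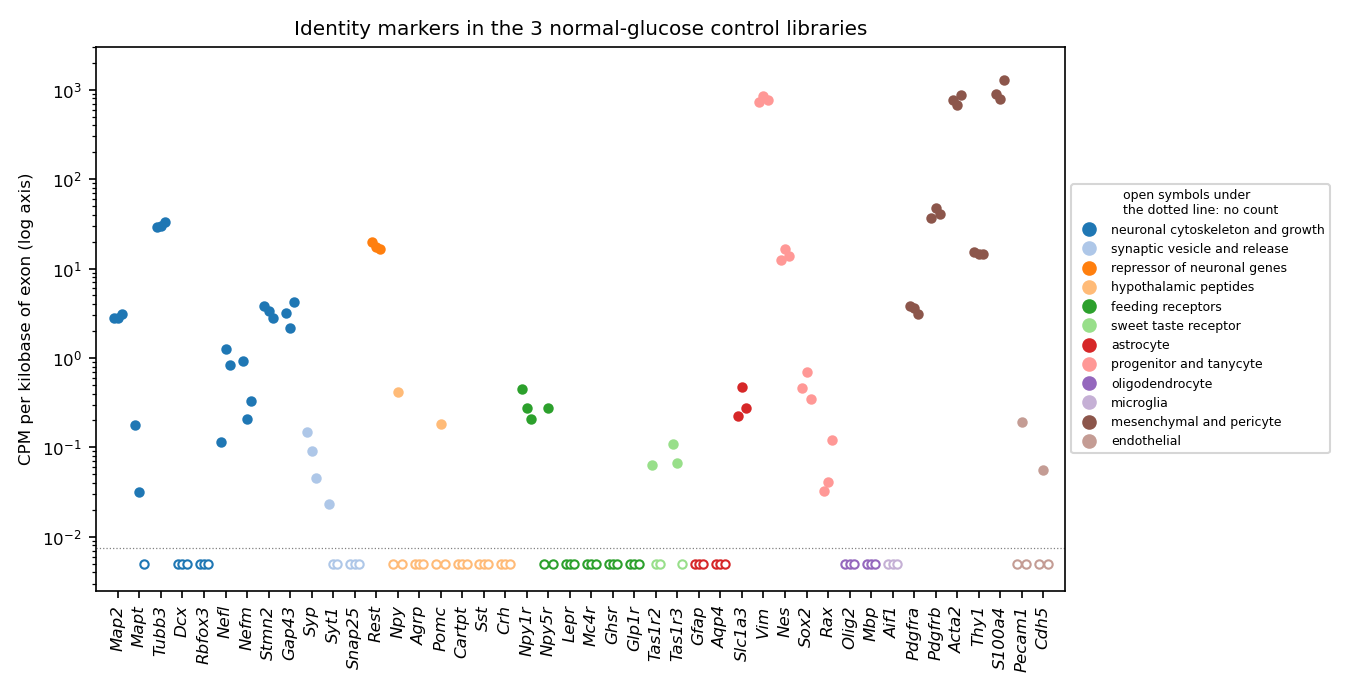
Level of each of the 44 markers in the 3 normal-glucose control libraries, in CPM per kilobase of exon on a log axis, coloured by role. Each point is a library, and open points under the dotted line are libraries with no count. S100a4, Vim and Acta2 lie above all other markers, and the peptide, oligodendrocyte and microglia markers lie at or near 0.

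Mesenchymal and pericyte markers were all expressed. The smooth muscle actin gene Acta2 had 1678, 1473 and 1899 CPM in the 3 NGC libraries, and the calcium-binding protein gene S100a4, a fibroblast marker, had 528, 460 and 750 CPM. Pdgfrb, the pericyte PDGF receptor, had 202, 261 and 226 CPM, whereas Pdgfra, the receptor of fibroblasts and oligodendrocyte progenitors, had 38.0, 35.9 and 31.3 CPM. Thy1, a surface protein of both fibroblasts and neurons, had 45.5, 43.0 and 44.1 CPM. Summed, the 5 genes reached 2571 ± 345 CPM (SD, n = 3).

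The filaments of the progenitor list were expressed and the transcription factors beside them were at or near the detection limit. Vim had 3492, 3994 and 3600 CPM, and Nes had 79.8, 105 and 89.5 CPM. Sox2, a factor of neural stem cells, had 0.960, 1.43 and 0.711 CPM. Rax, the homeobox factor that marks tanycytes, was silent at 0.192, 0.238 and 0.711 CPM, from 5 counts in all, and 27.4% of its exonic bases are shared with the antisense gene Raxos1.

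Neuronal cytoskeleton markers were divided. Tubb3, the neuronal beta-tubulin, had 54.7, 56.3 and 61.1 CPM, Map2, a dendritic microtubule protein, had 46.1, 46.1 and 50.7 CPM, and Stmn2, a growth cone regulator of microtubules, had 21.1, 18.8 and 15.6 CPM. The growth cone protein gene Gap43 was at 4.80, 3.33 and 6.40 CPM, and the neurofilament genes Nefl and Nefm were at means of 2.50 ± 1.97 and 2.82 ± 2.24 CPM. Mapt, which encodes tau, was seen in 8 counts (1.34, 0.238 and 0 CPM). Dcx, a marker of migrating young neurons, and Rbfox3, which encodes NeuN, had no count.

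All 3 markers of synaptic vesicle release were silent. Snap25, a fusion protein of the release machinery, had no count, the calcium sensor gene Syt1 had 1 count and the vesicle protein gene Syp had 7, at 0.768, 0.475 and 0.237 CPM. Their sum was 0.557 ± 0.368 CPM (SD, n = 3). Rest was expressed in each library, with 143, 125 and 118 CPM.

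Per kilobase of exon, S100a4 (992 ± 259), Vim (779 ± 55.8) and Acta2 (767 ± 97.0) led, and their ranges overlapped in that order. Pdgfrb (41.9 ± 5.44), Tubb3 (30.7 ± 1.78) and Rest (17.8 ± 1.78) followed without overlap between neighbours. Thy1 (14.8 ± 0.412) and Nes (mean 14.3, range 12.4 to 16.4) could not be separated from each other. The next step held Pdgfra, Stmn2, Gap43 and Map2, between 3.50 and 2.90 CPM per kilobase, with each range overlapping the next. Nefl, Sox2, Nefm, Slc1a3 and Npy1r lay between 0.740 and 0.309, likewise overlapping, and Mapt and Pecam1 came last at 0.0700 and 0.0636. Of the S100a4 exonic bases, 51.7% are shared with Gm42674 on the same strand, and Nefl and Nefm overlap each other on opposite strands over 32.8% and 19.2% of their bases. Reads there may be split or dropped in counting, and the effect on these levels was not tested.

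Glial and vascular markers were absent or low. Of the astrocyte markers, Gfap, the astrocyte filament, and Aqp4, the water channel of astrocyte endfeet, had no count, and the glutamate transporter gene Slc1a3 had 1.92, 4.04 and 2.37 CPM. The oligodendrocyte factor gene Olig2, the myelin protein gene Mbp and the microglial gene Aif1 had no count. The endothelial junction genes Pecam1 and Cdh5 had 5 counts and 1 count, all in NGC replicate 2, at 1.19 and 0.238 CPM. Aqp4 and Olig2 had no count in any of the 22 libraries.

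Of the 14 hypothalamic peptide, feeding receptor and sweet taste receptor genes, 13 were silent in NGC. Agrp, Cartpt, Sst and Crh among the peptides, and the receptor genes Lepr (leptin), Mc4r (melanocortins), Ghsr (ghrelin) and Glp1r (GLP-1), had no count. The peptide genes Npy and Pomc had 1 count each, both in replicate 2, and the receptor gene Npy5r had 3, in that library too. Tas1r2 had 1 count and Tas1r3 had 3, with a summed level of 0.271 ± 0.289 CPM, and 49.6% of the Tas1r2 exonic bases are shared with Gm21969 on the same strand. The exception was Npy1r, a receptor for neuropeptide Y, at 1.54, 0.951 and 0.711 CPM from 15 counts. It passed 1 CPM in replicate 1 only, and it too was silent without that library or with a limit of 2 CPM.

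Across all 22 libraries the 13 silent genes of this set gave 92 counts in 90035003, of which 47 fell in the 12 normal-glucose and 45 in the 10 high-glucose libraries. Cartpt, Crh, Mc4r and Ghsr had no count anywhere, which allows up to 0.0333 CPM over the 22 libraries. Npy had 1 count in all, in NGC replicate 2, and Sst and Glp1r had 2 each. The highest level of any of the 13 in a library was 1.32 CPM, for Npy5r in HGC replicate 1, where Agrp also reached 1.06 CPM. Tas1r3 reached 1.28 CPM in HG2 replicate 2, and the other 10 of the 13 never reached 1 CPM. The summed level of the 13 ran from 0 to 1.93 CPM (median 0.804) in normal glucose and from 0 to 3.43 CPM (median 1.23) in high glucose, so that the ranges overlapped.

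**Figure D2:**
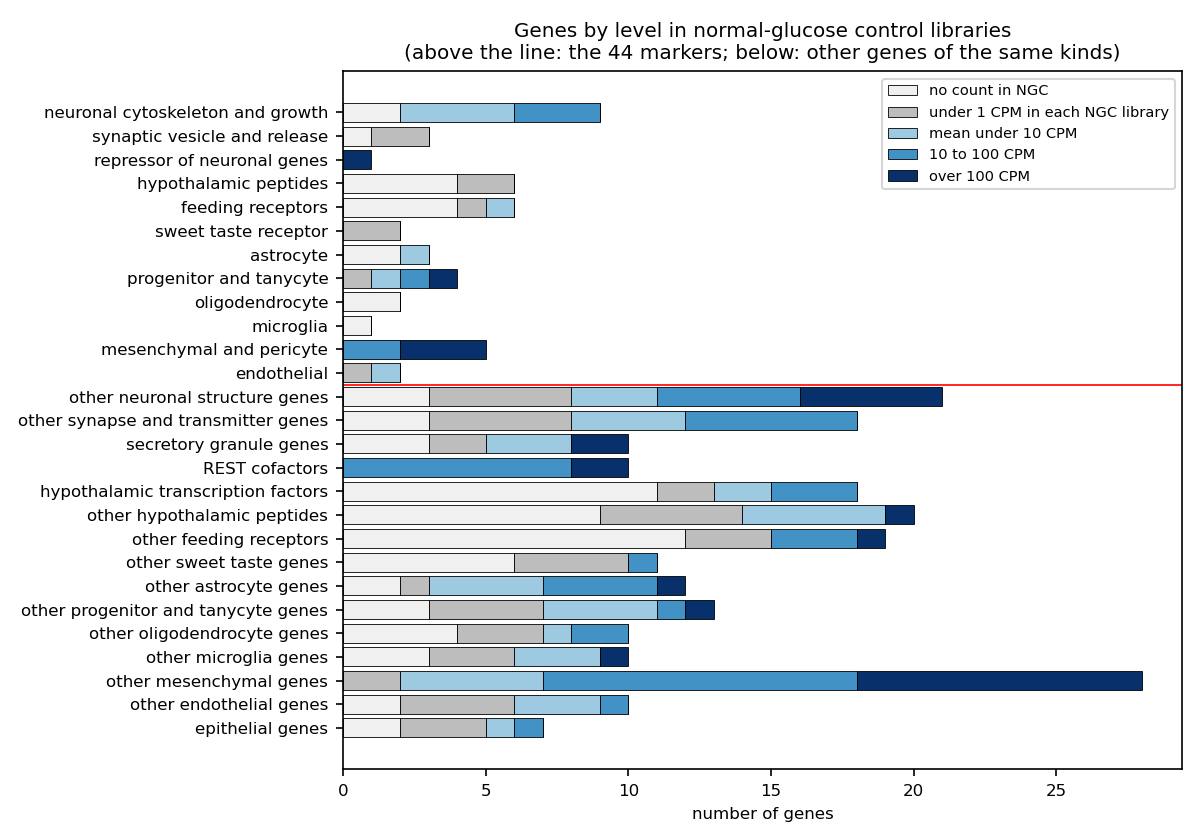
Number of genes in each class of NGC level, by role, for the 44 markers above the line and for 217 further genes of the same kinds below it. Bars run from no count (lightest) to over 100 CPM (darkest). No hypothalamic peptide, synaptic or sweet taste marker passes 1 CPM, and no mesenchymal marker is silent.

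A wider set of 217 genes of the same kinds, in 15 lists, showed which features the 44 markers leave out. Of these, 109 (50.2%) were silent in NGC, beside the 74.0% of all gene IDs and the 47.7% of IDs with a count in any of the 22 libraries. Only 2 of 28 other mesenchymal genes were silent, and those expressed included S100a6 (6668 ± 297 CPM), a calcium-binding protein, and Col1a2 (3247 ± 123 CPM), a collagen chain. None of 10 REST cofactors was silent, among them Hdac2 (139 ± 9.01 CPM), a histone deacetylase, and Rcor1 (131 ± 6.21 CPM), the CoREST scaffold. Silent genes were 8 of 21 in other neuronal structure, where Ncam1 (389 ± 48.4 CPM) and Dpysl3 (337 ± 49.3 CPM), an adhesion and a growth cone protein, were among those expressed.

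In the hypothalamic and sensory lists 13 of 18 hypothalamic transcription factors (72.2%), 14 of 20 other peptides (70.0%), 15 of 19 other feeding receptors (78.9%) and 10 of 11 other sweet taste genes (90.9%) were silent. The first 3 shares are near the 74.0% of all 56941 gene IDs, of which only 28284 had a count in any of the 22 libraries. A background of protein-coding genes alone was not taken. All of these shares are above the 47.7% of IDs with a count in any of the 22 libraries, though the lists also hold genes without one. Those expressed included Dlx2 (26.9 ± 2.09 CPM) and Dlx1 (15.98 ± 2.66 CPM), factors of GABA neuron progenitors, the neurotrophin gene Bdnf (238 ± 13.9 CPM), the tachykinin gene Tac1 (5.03 ± 0.543 CPM), and the broadly used receptor genes Igf1r (207 ± 11.8 CPM) and Adipor2 (51.2 ± 8.34 CPM). The sweet taste gene not silent was Itpr3 (62.5 ± 0.381 CPM), a calcium release channel of many tissues. In the other synapse and transmitter list 8 of 18 were silent, and Dlg4 (73.4 ± 4.76 CPM), which encodes a scaffold of excitatory synapses, was among those expressed. Of 10 secretory granule genes 5 were silent, and Cpe (713 ± 30.3 CPM) and Pam (194 ± 13.3 CPM), peptide-processing enzymes, were among those expressed.

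Among other glial and vascular lists the share of silent genes ranged widely. Silent were 3 of 12 astrocyte, 7 of 13 progenitor and tanycyte, 7 of 10 oligodendrocyte, 6 of 10 microglia, 6 of 10 endothelial and 5 of 7 epithelial genes. Those with counts included Sox9 (206 ± 40.0 CPM) and Gja1 (54.8 ± 4.91 CPM), Hes1 (216 ± 66.7 CPM) and Dio2 (93.3 ± 15.5 CPM), Cspg4 (37.6 ± 3.06 CPM) and Cnp (13.2 ± 2.89 CPM), Tmem119 (141 ± 21.3 CPM) and Csf1r (5.70 ± 1.86 CPM), Flt1 (50.5 ± 5.06 CPM) and Egfl7 (7.77 ± 2.09 CPM), and Krt19 (14.0 ± 2.63 CPM) and Krt18 (1.37 ± 1.16 CPM), in the same order of lists. Several of these are also made outside the lineage that heads their list, as Sox9 in chondrocytes and Cspg4 in pericytes.

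The silent set was nearly the same size in every group. Silent markers numbered 25 in NGC, 26 in NG1, NG2 and NG3, 25 in HGC, 23 in HG1, 25 in HG2 and 27 in HG3, the last 2 over 2 libraries each. All 25 genes silent in NGC were silent in NG1, NG2 and NG3. In HGC 22 of them were silent (not Agrp, Npy5r and Aif1), in HG1 22 (not Rbfox3, Syp and Mbp), in HG2 24 (not Tas1r3) and in HG3 24 (not Syp). Over the 22 libraries 18 of the 25 never reached 1 CPM, and the highest value was 1.65 CPM, for Mbp in HG1 replicate 3. At these depths 1 count is worth 0.129 to 0.294 CPM, and 28 markers (the 25 silent ones with Mapt, Sox2 and Pecam1) had too few counts to be tested.

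**Figure D3:**
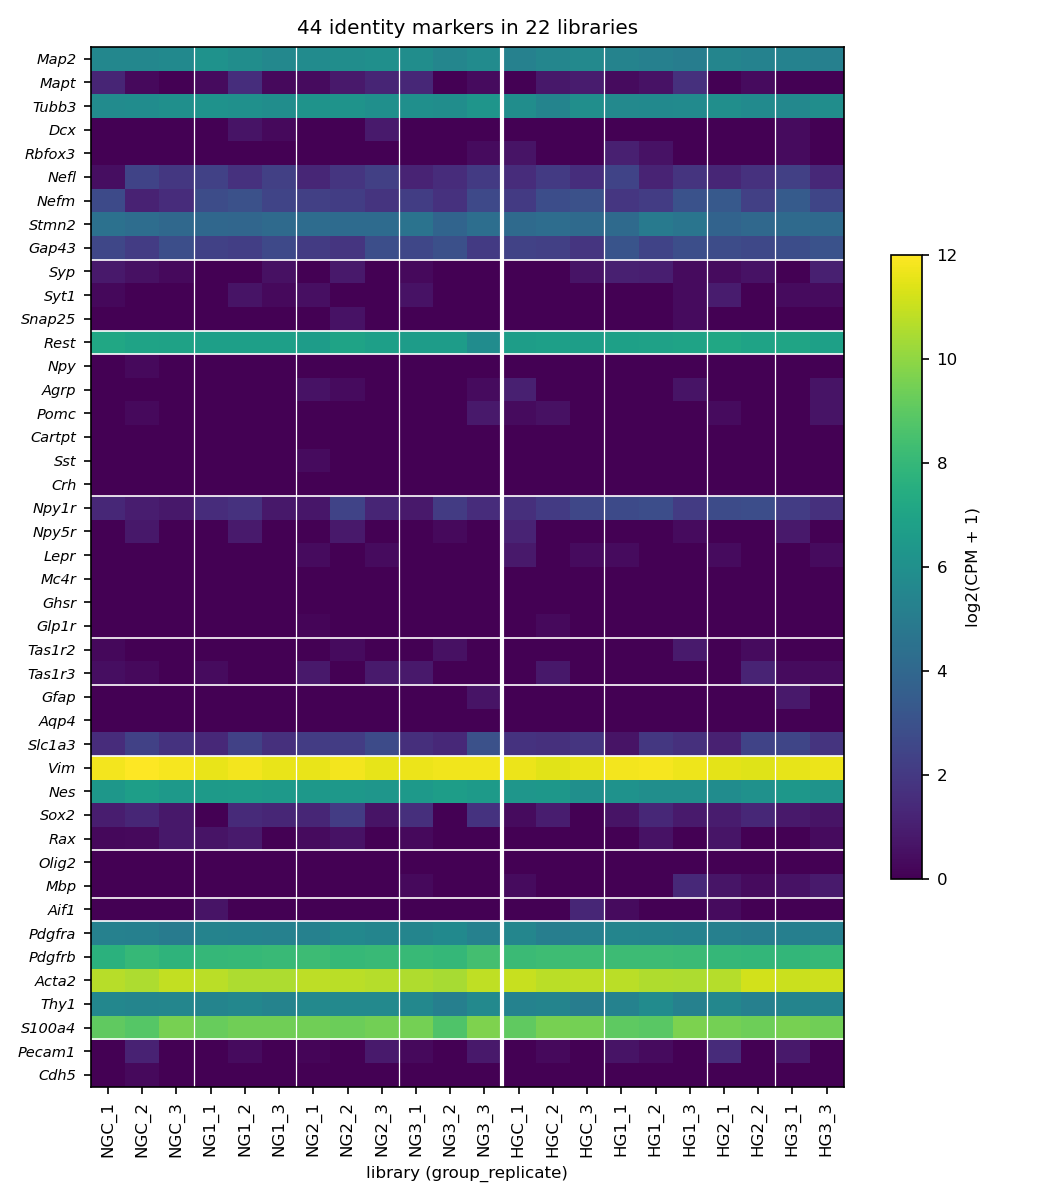
Level of the 44 markers (rows, grouped by role) in the 22 libraries (columns, by group and replicate), as log2(CPM + 1) with a pseudocount of 1. The heavy line divides normal from high glucose. Colour is to be read along a gene's row, since CPM is not scaled by gene length. Vim, Acta2 and S100a4 are bright in all 22 libraries, and the peptide markers are dark in all of them.

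The remaining 16 markers were tested between groups with edgeR's quasi-likelihood test over 13281 genes, with Benjamini-Hochberg adjustment within each comparison and a threshold of 0.05. They had passed a filter on low counts, and all had a mean NGC level of at least 1 CPM. Effects are log2 differences ± standard error, taken as the size of the difference divided by the square root of the test's F statistic.

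High glucose was compared with normal glucose over all dose labels, with 10 against 12 libraries. The neuronal microtubule gene Map2 and the filament gene Nes fell, and the neuropeptide Y receptor gene Npy1r and the actin gene Acta2 rose. Thus 4 of 16 tested markers passed, 2 in each direction, where 10.1% of all tested genes passed (5.71% higher and 4.38% lower). The median difference over the 16 was 0.00, and over all tested genes it was -0.01. In none of the 16 were the 10 and 12 libraries fully apart, as they were in 0.783% of all tested genes.

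Map2 (ENSMUSG00000015222) ran from 44.1 to 69.5 CPM (median 54.1) in normal glucose and from 33.2 to 49.6 CPM (median 38.4) in high glucose. Of the high-glucose libraries, 2 of HGC, at 44.8 and 49.6 CPM, reached into the normal-glucose range. The means were 53.9 ± 7.46 and 39.9 ± 4.72 CPM (SD), and Map2 fell by 0.39 ± 0.08 (adjusted p = 0.000853). Nes (ENSMUSG00000004891) ran from 78.7 to 105 CPM (median 89.0) in normal and from 55.4 to 79.9 CPM (median 66.8) in high glucose, so that the ranges met only at their edge. It fell by 0.36 ± 0.07, from 89.4 ± 8.19 to 67.9 ± 9.04 CPM (adjusted p = 0.000399).

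Npy1r (ENSMUSG00000036437), the feeding receptor gene that was not silent, ran from 0.643 to 4.36 CPM (median 1.46) in normal and from 2.11 to 6.19 CPM (median 4.11) in high glucose. The overlap came from NG2 replicate 2 and NG3 replicate 2 (3.25 CPM) on the normal side, with NG1 replicate 2 at 2.26 CPM just inside it. Its difference was 1.35 ± 0.33 (adjusted p = 0.00455), a 2.55-fold rise from 1.69 ± 1.15 to 4.22 ± 1.59 CPM that rests on 242 counts over the 22 libraries. Acta2 (ENSMUSG00000035783) ran from 1373 to 1899 CPM (median 1661) in normal and from 1490 to 2348 CPM (median 1777) in high glucose, with most libraries in the shared range. It rose by 0.24 ± 0.06 (adjusted p = 0.00787), from 1639 ± 172 to 1856 ± 296 CPM. Without HG2 replicate 2, the library of 2348 CPM, Acta2 no longer passed (adjusted p = 0.0976). Map2, Nes and Npy1r passed under each of 29 other settings of the fit.

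**Figure D4:**
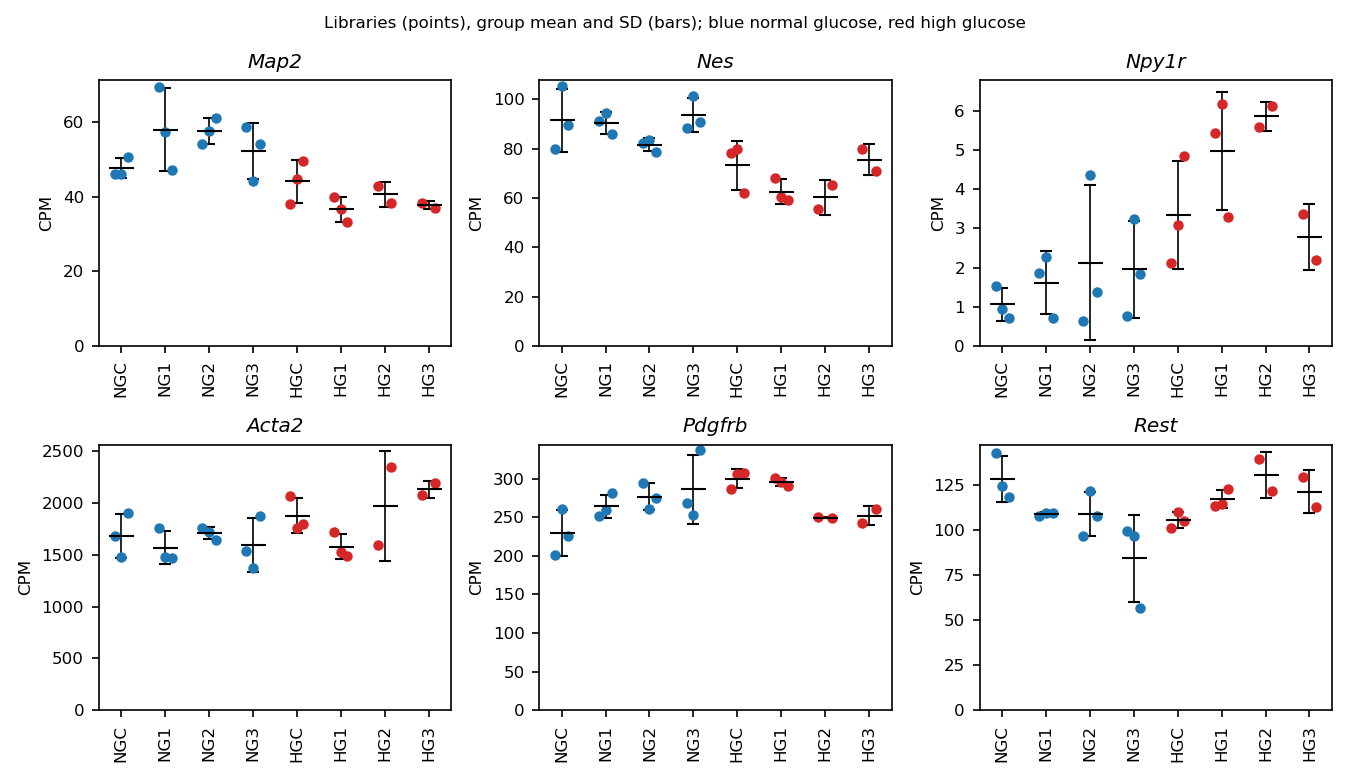
CPM of the 6 markers that passed the test in any comparison, by group. Points are libraries (blue normal, red high glucose), the dash is the group mean and the bar its SD (n = 3, or 2 in HG2 and HG3). Map2 and Nes lie lower and Npy1r higher in most high-glucose libraries, and the lowest Rest value is NG3 replicate 3.

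Of the 12 markers that did not pass, Tubb3 had the lowest p among the other cytoskeleton genes, at 63.5 ± 6.82 CPM in normal and 53.1 ± 5.92 CPM in high glucose (difference -0.21 ± 0.08, adjusted p = 0.0736). Nefm differed by 0.64 ± 0.25 (adjusted p = 0.106), from 3.89 ± 1.72 to 5.68 ± 2.54 CPM. Rest differed by 0.19 ± 0.08 (adjusted p = 0.116). Vim, Slc1a3 and Pdgfrb had differences of -0.08 ± 0.05, -0.25 ± 0.32 and 0.10 ± 0.06 (adjusted p = 0.380, 0.707 and 0.331). The other 6, Nefl, Stmn2, Gap43, Pdgfra, Thy1 and S100a4, had differences between -0.09 and 0.28. By list, 1 of 6 tested cytoskeleton genes passed (lower), 1 of 2 filaments of the progenitor list (lower), 1 of 1 feeding receptors (higher) and 1 of 5 mesenchymal genes (higher).

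**Figure D5:**
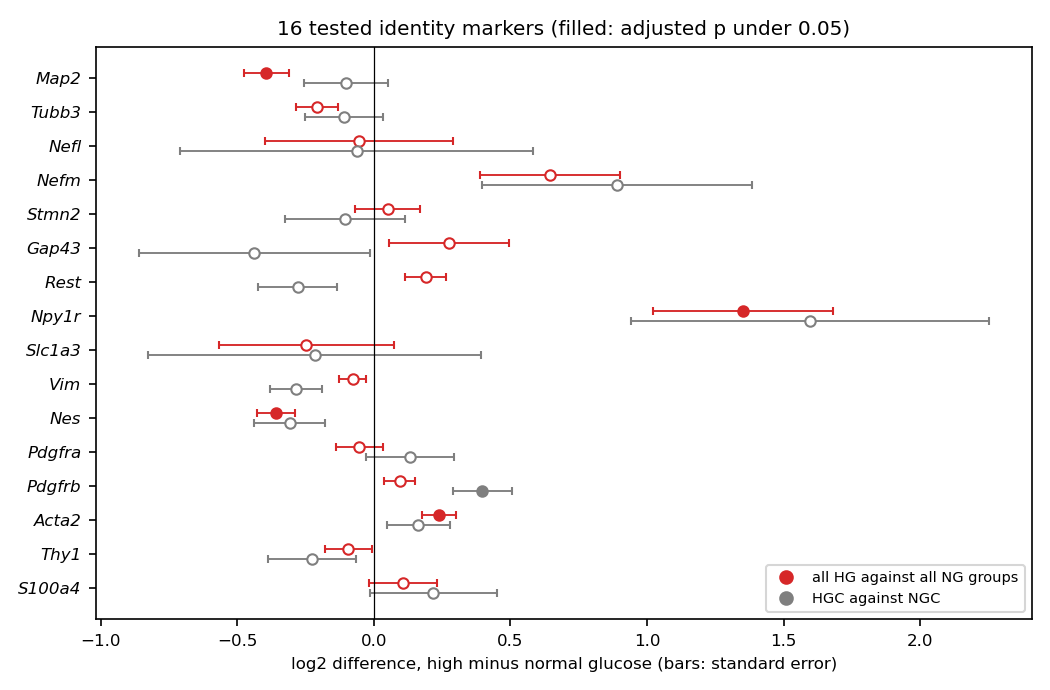
Log2 difference of the 16 tested markers between high and normal glucose, over all groups (red) and in the controls alone (grey). Bars are standard errors, and filled points passed the adjusted threshold. Npy1r has the highest estimate in both comparisons, with an adjusted p of 0.00455 over all groups and 0.273 in the controls.

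In the controls alone, HGC against NGC, the pericyte receptor gene Pdgfrb rose. Its level was 202, 261 and 226 CPM in NGC and 286, 306 and 307 CPM in HGC, with no overlap. The difference was 0.40 ± 0.11 (adjusted p = 0.0357, ENSMUSG00000024620), from 229 ± 29.8 to 300 ± 11.8 CPM. It was the 1 of 16 markers that passed, beside 2.28% of all tested genes. The call was lost without NGC replicate 1 (adjusted p = 0.257), NGC replicate 3 (0.1004), HGC replicate 2 (0.134) or HGC replicate 3 (0.121).

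Libraries of HGC and NGC were fully apart for 6 of 16 markers, where 18.2% of all tested genes were: Pdgfrb and Npy1r were higher and Rest, Vim, Nes and Thy1 lower in HGC. Npy1r was at 2.11, 3.08 and 4.85 CPM in HGC (difference 1.60 ± 0.66, adjusted p = 0.273). Vim was at 3159, 2797 and 3096 CPM (difference -0.28 ± 0.09, adjusted p = 0.121), and Nes was at 78.2, 79.8 and 61.9 CPM (difference -0.31 ± 0.13, adjusted p = 0.295). Rounded, the lowest Nes value in NGC was also 79.8 CPM, so the groups were only just apart for Nes. Map2 overlapped between the controls, at 38.0, 44.8 and 49.6 CPM in HGC (difference -0.10 ± 0.15, adjusted p = 0.868).

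At each dose label, high glucose was compared with normal glucose among treated cells. At label 1, HG1 against NG1, Map2 and Nes fell, 2 of 16 markers beside 1.66% of all tested genes. Map2 was at 69.5, 57.3 and 47.2 CPM in NG1 and at 40.0, 36.6 and 33.2 CPM in HG1, a fall by 0.62 ± 0.16 (adjusted p = 0.0263). Nes was at 91.3, 94.6 and 85.8 CPM in NG1 and at 68.3, 60.4 and 59.2 CPM in HG1, a fall by 0.49 ± 0.13 (adjusted p = 0.0449). Neither gene overlapped between the groups. The same was true of 7 of 16 markers in all, where 21.7% of all tested genes had no overlap. Map2 did not pass without NG1 replicate 1 or 2 or HG1 replicate 2 or 3, and Nes did not pass in 14 of the 22 fits that left out 1 library (adjusted p up to 0.258 and 0.201).

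At label 2, HG2 against NG2, no marker passed (0 of 16, beside 0.760% of all tested genes). Map2, Nes and Npy1r had unadjusted p under 0.05 in edgeR, 3 of 16, beside 10.5% of all tested genes, and DESeq2 called 0. Their differences were -0.46 ± 0.17, -0.39 ± 0.15 and 1.58 ± 0.65 (adjusted p = 0.319, 0.325 and 0.363). At label 3, HG3 against NG3, edgeR called 0 of 16 markers, beside 0.919% of all genes, with 3 at unadjusted p under 0.05 (12.2% of all genes), and DESeq2 called 2, Rest and Acta2. Acta2 was at 1534, 1373 and 1876 CPM in NG3 and at 2074 and 2188 CPM in HG3 (difference 0.49 ± 0.13, adjusted p = 0.0518). Without NG3 replicate 3, the library that stood apart, Acta2 passed in edgeR (difference 0.61, adjusted p = 0.00979). It passed in some of the other fits that left out 1 library and not in the rest. Map2 and Nes had differences of -0.40 ± 0.18 and -0.25 ± 0.15 there (adjusted p = 0.325 and 0.519).

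Whether the glucose difference itself changed between treated and untreated cells was tested as an interaction. It passed for 0 of 16 markers and for 1 of all tested genes (0.00753%), with 4 markers at unadjusted p under 0.05 in edgeR, beside 8.48% of all genes, and 0 called by DESeq2. Those 4 were Rest (0.62 ± 0.17, adjusted p = 0.218), Pdgfrb (-0.40 ± 0.13, 0.271), Vim (0.28 ± 0.11, 0.481) and Map2 (-0.39 ± 0.18, 0.554). A glucose difference confined to treated or to untreated cells was thus not shown for any marker.

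The effect of mogroside V was tested at each dose label against the control in the same medium. In normal glucose 1 marker passed at 1 label. Rest (ENSMUSG00000029249) was at 143, 125 and 118 CPM in NGC, at 108, 110 and 110 CPM in NG1, at 97.0, 122 and 108 CPM in NG2 and at 99.6, 96.7 and 56.7 CPM in NG3. NG3 lay below NGC by 0.67 ± 0.15 (adjusted p = 0.0463), beside 0.128% of all tested genes, and 2 of 16 markers had no overlap, beside 12.9% of genes. The lowest value belongs to NG3 replicate 3, the library that stood apart, and without it Rest did not pass (adjusted p = 0.246). Nor did it pass under 16 of the other 29 settings.

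For NG1 and NG2 against NGC, edgeR and DESeq2 both called 0 of 16 markers, where edgeR called 0% and 0.00753% of all genes, and 1 and 3 markers had unadjusted p under 0.05 (4.88% and 6.46% of all genes). In high glucose, 0 of 16 markers passed in HG1, HG2 or HG3 against HGC in edgeR or DESeq2, and 2, 1 and 1 had unadjusted p under 0.05, where 7.78%, 5.35% and 4.51% of all genes did. No gene at all passed in these 3 comparisons (0%). The dose comparisons in a medium share 1 control group, so their values are not independent of each other. For Npy1r, the differences from HGC were 0.58 ± 0.58, 0.80 ± 0.63 and -0.26 ± 0.68 at labels 1, 2 and 3 (adjusted p = 0.855, 0.960 and 0.999). At these standard errors a change of 1 log2 unit was not detectable for this gene of few counts.

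A joint test for any difference among the 8 groups passed for 3 of 16 markers, Nes (adjusted p = 0.0134), Map2 (0.0338) and Rest (0.0432), beside 4.25% of all tested genes. Without NG3 replicate 3 and HGC replicate 2 together, Rest had an adjusted p of 0.0636, and Nes and Map2 passed. Over 29 other settings Nes did not pass in 1, Map2 in 12 and Rest in 19. Group means of Nes ran from 60.4 CPM in HG2 to 93.7 CPM in NG3, those of Map2 from 36.6 CPM in HG1 to 58.0 CPM in NG1, and those of Rest from 84.3 CPM in NG3 to 131 CPM in HG2.

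Among the 217 further genes, 5 of 25 tested mesenchymal genes rose and 0 fell when all high-glucose libraries were compared with all normal-glucose ones, beside 5.71% of all tested genes that rose and 4.38% that fell, with a median difference of 0.08 beside -0.01 over all genes. Those of lowest p were the matrix protein gene Postn (0.69 ± 0.08, adjusted p = 1.2e-08), the N-cadherin gene Cdh2 (0.47 ± 0.08, adjusted p = 2.3e-05) and the myosin light chain gene Myl9 (0.32 ± 0.06, adjusted p = 0.000345). In HGC against NGC, 2.28% of all tested genes passed in either direction. There 1 of the 25 rose, Postn (0.81 ± 0.15, adjusted p = 0.000476), and 1 fell, the hyaluronan receptor gene Cd44, from 335 ± 23.5 to 248 ± 15.6 CPM (-0.43 ± 0.12, adjusted p = 0.0463). Cd44 did not pass in 19 of 30 other settings (adjusted p up to 0.231). Over all libraries, of 10 tested REST cofactors 2 fell and 0 rose, Rcor1 (-0.22 ± 0.06, adjusted p = 0.00968) and Rcor2 (-0.41 ± 0.12, adjusted p = 0.0272). Rcor1 was at 132 ± 5.84 CPM in normal and 110 ± 6.15 CPM in high glucose, with no overlap between the 12 and 10 libraries. Postn, Cdh2, Myl9 and Rcor1 passed under each of 29 other settings, and Rcor2 did not in 6, with the highest adjusted p, 0.146, without HG3 replicate 1.

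The counts that follow stand beside 10.1% of all tested genes that passed over all libraries, 5.71% higher and 4.38% lower. In lists with so few tested genes, 1 gene that passed does not set a list apart from these shares. In the astrocyte list 2 of 8 tested genes rose, the lipid carrier gene Apoe (0.75 ± 0.12, adjusted p = 1.2e-05) and the chaperone gene Clu (0.37 ± 0.11, adjusted p = 0.0280), and Sox9 fell by 0.21 ± 0.07 (adjusted p = 0.0430). In the lists of neurons, 0 of 12 other structure genes and 1 of 9 synapse genes passed (Dlg4, which fell by 0.26 ± 0.07, adjusted p = 0.0153). In the hypothalamic lists, Lhx6 fell by 0.46 ± 0.14 (1 of 4 tested factors, adjusted p = 0.0252), and Bdnf rose by 0.31 ± 0.08 (1 of 5 tested peptides, adjusted p = 0.0142). Csf1r, the receptor of macrophage growth factor, rose by 0.88 ± 0.22 (1 of 4 tested microglia genes, adjusted p = 0.00533), and the endothelial gene Emcn fell by 1.55 ± 0.49 (1 of 3 tested, adjusted p = 0.0341) at a mean of 2.11 CPM in normal glucose. Over the 29 other settings Apoe always passed, whereas Csf1r did not in 1, Bdnf in 2, Dlg4 in 3, Clu in 6, Lhx6 in 9, Emcn in 12 and Sox9 in 15 (adjusted p up to 0.166). The libraries whose absence lost a call were HG3 replicate 3 for Csf1r, HG2 replicate 2 and HG3 replicate 1 for Bdnf, and HG2 replicate 2 and HG3 replicate 3 for Dlg4 (adjusted p of 0.0526 to 0.0867). None of the 3 secretory granule, 4 feeding receptor, 1 sweet taste, 4 progenitor and tanycyte, 3 oligodendrocyte or 2 epithelial genes tested passed.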

How the data were processed

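The members and all lists were chosen with earlier results of these data known. Each library has 1 deposited file of raw read counts by gene ID, without normalization. HTSeq 1.99.2, STAR 2.7.5c, FastQC 0.11.9 and DESeq2 3.16 are listed with the build GRCm39 in the submitters' processing notes. Whether counting used strand is not given in the sources, so overlapping antisense genes cannot be told apart. RNA was extracted with a DNase step and sequenced as polyA RNA, per the labels' protocols. The 5 summary lines of each file stayed out of all totals: reads outside genes took 14.4 to 20.6%, ambiguous reads 3.46 to 4.15% and reads at several places 16.5 to 18.9%. The ID ENSMUSG00000119584, which has no symbol in the table used, took 4.93 to 9.44% of gene counts.

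Symbols were found for 51948 of 56941 IDs and for all 261 genes of the lists. Exon lengths and overlaps come from GENCODE M21 (GRCm38) and promoters from RefSeq (GRCm38.p6). Neither is the build of the counts, so no coordinate was used to count. Differences were tested with edgeR 4.0.16 and limma 3.58.1 in R 4.3.3: TMM scaling, filterByExpr on the 8 groups, a model of 1 mean per group and the quasi-likelihood F test with robust fitting. The filter kept 13281 genes and removed 43660 IDs, with 14 residual degrees of freedom and a biological coefficient of variation of 0.149. The pipeline was tested on simulated data. Other settings were DESeq2 1.42.0, RLE factors, no filter, only the groups compared, a replicate block, the identical library in HG2 or in HG3, and libraries left out.

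Named with values are, in each list of markers, the 2 highest in NGC per kilobase and the 2 of lowest p over all groups, every marker past the threshold and every marker without counts in NGC. Of the other lists, up to 3 past the threshold and the 2 highest in NGC by CPM are named. One gene that this rule would name is not reported here. Further markers were named to account for all 44.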

Additional observations from a re-analysis of the deposited data

Results flagged for a closer look

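Of all 13281 tested genes, 1 had a glucose effect that differed between treated and untreated cells. It is on a list that was chosen with earlier results of these data known, so its place there is no finding about the list. Celf4, which encodes a neuronal RNA-binding protein, had a difference between these effects of 0.84 ± 0.15 on the log2 scale (edgeR, adjusted p = 0.0172). In untreated cells it fell by 0.61 ± 0.13 (adjusted p = 0.00188), from 147 ± 1.12 CPM in NGC to 95.5 ± 13.0 CPM in HGC. With mogroside V its means were 116, 112 and 112 CPM in NG1, NG2 and NG3 and 130, 121 and 133 CPM in HG1, HG2 and HG3. The interaction did not pass without HGC replicate 2 (adjusted p = 0.191), NGC replicate 2 (0.083), NGC replicate 3 (0.05355), HG2 replicate 1 (0.0534) or HG3 replicate 3 (0.06411). The cause of the difference was not tested.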

How the results depend on the processing

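No difference that passed changed direction under any setting run. For all high against all normal glucose, 4 markers passed, and 3 to 5 when 1 library was left out. For HGC against NGC, 1 marker passed, but 0 without the low-count filter or with only the groups compared, 2 with DESeq2 (Pdgfrb and Vim), and 0 to 1 with 1 library left out. For HG1 against NG1, 2 passed, 1 without the filter and 0 to 2 with a library left out. For HG3 against NG3, 0 passed, but 1 with RLE factors, with the identical library in HG3, or without NG3 replicate 3 and HGC replicate 2 together, 2 without the filter, with the identical library in HG2 or with DESeq2 (always Acta2, Rest or both), and 0 to 1 with a library left out. For NG3 against NGC, 1 passed, but 0 with RLE factors, without NG3 replicate 3 and HGC replicate 2 together or with only the groups compared, and 0 to 1 with a library left out. The interaction gave 0, but 1 without the filter (Rest). The joint test gave 3, 6 without the filter and with DESeq2, and 1 to 4 with a library left out. Silent markers in NGC numbered 25, with 22 under 0.5 CPM, 29 under 2 CPM and 25 to 27 with 1 NGC library left out. The cause of these changes was not tested.

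Replicate numbers shared between groups did not pair the libraries: over 70 same-numbered pairs the correlation of deviations ran from -0.108 to 0.165 (median 0.0107), and 7 of 22 libraries correlated best with their own number. With the replicate block, 1 marker (Rest) passed in HG3 against NG3 instead of 0, and no other count of markers changed by over 1.5 times. Depth limits the 28 untested markers, where a single count is worth 0.129 CPM or more.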
